A study of Rattus norvegicus with 8 samples.

Results

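The retinoid synthesis and binding genes examined here are Aldh1a1, Aldh1a2, Aldh1a3, Rbp4, Crabp1, Crabp2, Cyp26b1, Stra6 and Rarb, measured in thoracic spinal cord of adult rats. Each was taken as the probe set to which the platform annotation gives that symbol alone, which found 9 of 9 among 18166 genes, each with 1 probe set. The values are log2 signals from 8 Affymetrix Rat Gene 2.0 ST arrays of total RNA, on which a difference of 1 is a doubling of signal. The injured group (SCI, 4 arrays) had its thoracic cord lesioned, and the sham group (4 arrays) had a laminectomy alone. All were male Long Evans rats of about 175 days, weighing 400 g, without a transgene or an allele named in the labels. After 4 weeks of surgical recovery on chow every rat of both groups was put on a high-fat diet, so the diet separates no groups here, and there was no chow-fed comparison. The labels put the total at 8 weeks without making clear whether that counts the recovery, so the time between injury and tissue collection is not settled. One label places the tissue at thoracic segments 10 to 11 and another at 11 to 12, and neither states how far the tissue was from the lesion. The labels name no separate animal for each array, so the p-values measure the spread between these samples, and the number of arrays limits the precision.

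Vitamin A reaches tissue as retinol bound to Rbp4 and can enter cells through the receptor Stra6. Retinol dehydrogenases oxidise it reversibly to retinal, and the Aldh1a enzymes convert retinal irreversibly to retinoic acid. Inside cells retinoic acid is carried by Crabp1 and Crabp2, is broken down by Cyp26 enzymes such as Cyp26b1, and acts through nuclear receptors, of which Rarb is also a gene that retinoic acid induces. In the central nervous system the meninges are a known source of retinoic acid, and Aldh1a2 is a gene of meningeal fibroblasts. Bulk cord was extracted, and the labels do not say whether meninges were stripped from it. More or fewer cells of a type and more or less RNA per cell cannot be told apart in such values.

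Sequence upstream of the annotated transcript start, from RefSeq on the GRCr8 assembly, is shown for Aldh1a2 and Cyp26b1, the 2 genes called higher below, and for Aldh1a1, which was not called and whose window shares the octamer with that of Aldh1a2. Capitals mark the octamer ATGCAAAT, a binding sequence of POU factors, and the CCAAT box, CCAAT. Both were chosen for display after the sequences had been seen, and both were searched on both strands in the 250 bases before each start.
Aldh1a2 (chr8:80758391-80758640, plus strand): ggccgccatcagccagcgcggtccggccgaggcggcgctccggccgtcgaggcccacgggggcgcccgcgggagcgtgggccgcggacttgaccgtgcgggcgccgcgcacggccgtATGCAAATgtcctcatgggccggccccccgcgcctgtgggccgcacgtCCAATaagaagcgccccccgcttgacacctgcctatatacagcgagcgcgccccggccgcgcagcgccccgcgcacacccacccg
Aldh1a1 (chr1:227537370-227537619, plus strand): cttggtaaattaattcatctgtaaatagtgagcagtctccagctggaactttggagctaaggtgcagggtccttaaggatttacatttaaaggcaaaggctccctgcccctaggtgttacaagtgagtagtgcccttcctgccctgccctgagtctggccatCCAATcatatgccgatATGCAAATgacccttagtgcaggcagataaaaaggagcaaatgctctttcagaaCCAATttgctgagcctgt
Cyp26b1 (chr4:118616177-118616426, minus strand): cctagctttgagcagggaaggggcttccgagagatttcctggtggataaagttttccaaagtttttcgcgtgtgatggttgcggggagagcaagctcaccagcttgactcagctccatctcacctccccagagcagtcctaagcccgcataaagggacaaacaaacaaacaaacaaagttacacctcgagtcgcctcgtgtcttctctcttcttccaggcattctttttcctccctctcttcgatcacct
The octamer began 133 bases before the Aldh1a2 start and 72 bases before the Aldh1a1 start, and 1.56% of 33469 promoter windows of that length held it. The CCAAT box was in the Aldh1a2, Aldh1a1 and Aldh1a3 windows and in 34% of all. The Cyp26b1 window held neither set of letters. The Aldh1a2 window was 77.2% G and C with 41 CpG, against 46.4% and 1 CpG in Aldh1a1, 50.4% and 9 CpG in Cyp26b1, and medians of 51.2% and 5 CpG over all windows. The start used for Aldh1a1 lies inside the annotated gene, so it belongs to one of several transcripts. A match describes letters only.

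A retinoic acid response element is a direct repeat of a motif of 6 bases with a spacer between the copies, and the element known from the promoter through which retinoic acid induces Rarb was present in the RefSeq window of rat Rarb. It is printed with both copies of the repeat in capitals.
Rarb (chr15:11336416-11336432, plus strand): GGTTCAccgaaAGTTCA
It lay at bases 25 to 41 counted from the annotated start as 1, and this start too lies inside the Rarb gene. The exact form, GGTTCA and AGTTCA with any 5 bases between them, on either strand, was found in 3 of 33469 windows of 250 bases before and 50 after a start (0.00896%). The looser DR5 form, with a spacer of 5 bases, was in 0.382% of windows, the DR2 form in 0.17% and the DR1 form in 0.233%. Of the 9 members, 1 window held any of these forms, that of Rarb, and 8 held none.

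In injured cord 2 of the 9 genes rose and 0 fell at an adjusted p under 0.05 (limma, Benjamini-Hochberg over all 18166 genes). The genes that rose were Aldh1a2, which makes retinoic acid, and Cyp26b1, which degrades it. Of all genes tested, 7.10% were higher and 7.06% lower in SCI by the same rule. The median difference of the 9 genes was 0.22 on the log2 scale and that of all genes was -0.01. The other 7 genes had differences of -0.04 to 0.38 and adjusted p of 0.21 to 0.94. No array overlapped between the groups for the 2 called genes, with SCI above sham, as for 9.36% of all genes (20.3% of genes did not overlap in either direction).

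**Figure D1:**
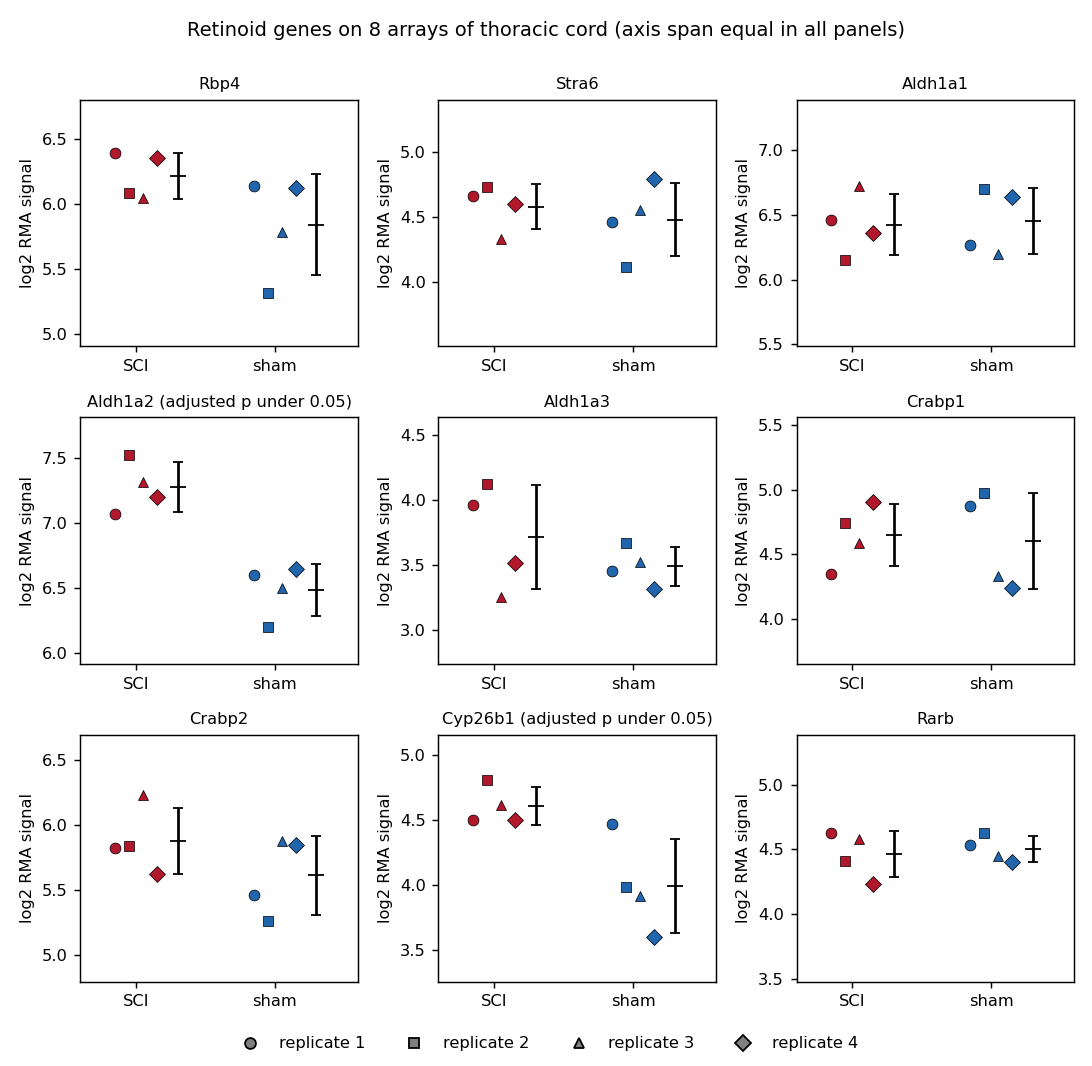
Log2 signal (y axis) of the 9 genes in SCI arrays (red) and sham arrays (blue), 1 point per array shaped by replicate number, which pairs nothing, with the group mean and SD as a black bar. The y axis spans the same width in every panel, and the groups are apart only for Aldh1a2 and Cyp26b1.

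Aldh1a2, also called Raldh-2, is the main retinoic acid synthase of the embryo and of meningeal fibroblasts. Its log2 signals (probe set 17845663) were 7.07, 7.53, 7.32 and 7.20 on the SCI arrays and 6.60, 6.20, 6.50 and 6.65 on the sham arrays. Every SCI array was above every sham array, with a gap of 0.43 between the groups, and the highest value was on SCI 2 and the lowest on sham 2. The means were 7.28 ± 0.19 in SCI and 6.49 ± 0.20 in sham (log2, SD, n = 4 each), a 1.73-fold rise. The log2 difference was 0.79 (SE 0.13, 95% interval 0.50 to 1.08, limma adjusted p = 0.0030). The call was kept without any 1 array (adjusted p of 0.0047 to 0.010) and was lost without SCI 3, sham 1 and sham 2 together (difference 0.70, adjusted p = 0.058). Those 3 arrays had the smallest SD of values over all probe sets, 2.04 to 2.05 against 2.08 to 2.11 on the others.

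Aldh1a1, a retinal dehydrogenase found in many adult tissues, had 6.46, 6.15, 6.72 and 6.36 on the SCI arrays and 6.27, 6.69, 6.19 and 6.64 on the sham arrays. The groups overlapped throughout, and SCI 2, the highest array for Aldh1a2, was the lowest for Aldh1a1. The log2 difference was -0.03 (SE 0.15, 95% interval -0.36 to 0.31, limma adjusted p = 0.94). Aldh1a3, the third retinal dehydrogenase, had 3.96, 4.12, 3.25 and 3.52 on the SCI arrays and 3.45, 3.67, 3.52 and 3.31 on the sham arrays. SCI 1 and SCI 2 were above every sham array and SCI 3 below every sham array, and all of these levels were under 4.74, the median mean level of the genes tested. The difference was 0.22 (SE 0.18, 95% interval -0.17 to 0.62, limma adjusted p = 0.49), and it was 0.086 without SCI 2 and 0.38 without SCI 3.

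Whether the 3 Aldh1a genes changed unequally was tested on the difference between 2 genes within each array. Aldh1a2 minus Aldh1a1 was 0.86 ± 0.36 in SCI and 0.04 ± 0.38 in sham (log2, SD, n = 4 each), and every SCI array lay above every sham array. The change of this difference was 0.82, with an exact two-sided permutation p of 0.029, the smallest that the 70 assignments of the 8 arrays allow, and 0.11 when adjusted over the 4 pairs compared. Aldh1a2 minus Aldh1a3 was 3.57 ± 0.41 in SCI and 3.00 ± 0.34 in sham, a change of 0.57 (exact permutation p = 0.086, adjusted 0.17). Aldh1a1 minus Aldh1a3 was 2.71 ± 0.60 in SCI and 2.96 ± 0.28 in sham, a change of -0.25 (exact permutation p = 0.49, adjusted 0.60). With 4 arrays a group, adjustment takes the smallest possible p to 0.11 where 1 of the 4 pairs reaches it, so a lone separated pair could not pass 0.05, and the adjusted values do not show that the genes changed alike. Without SCI 3, sham 1 and sham 2 together the change of Aldh1a2 minus Aldh1a3 was 0.25 and that of Aldh1a1 minus Aldh1a3 was -0.54, and without SCI 2 the last of these was -0.0241.

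Cyp26b1, the retinoic acid hydroxylase of the adult brain, had 4.49, 4.81, 4.62 and 4.50 on the SCI arrays (probe set 17792700) and 4.47, 3.98, 3.92 and 3.60 on the sham arrays. The groups did not overlap, but the gap was 0.027, with sham 1 just under SCI 1 and the other sham arrays at or below 3.98. The means were 4.60 ± 0.15 in SCI and 3.99 ± 0.36 in sham (log2, SD, n = 4 each), a 1.53-fold rise with a log2 difference of 0.61 (SE 0.17, 95% interval 0.25 to 0.98, limma adjusted p = 0.032). The call was lost without any 1 of SCI 1, SCI 2, SCI 3, sham 2, sham 3 and sham 4 (adjusted p of 0.053 to 0.093) and kept without SCI 4 (0.049) or sham 1 (0.0060). With the second number of the sample titles as a covariate the difference was 0.38 (adjusted p = 0.19). Its mean level lay under the median of all genes.

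Rbp4, the plasma carrier of retinol, had 6.39, 6.08, 6.05 and 6.35 on the SCI arrays and 6.14, 5.31, 5.79 and 6.12 on the sham arrays. SCI 1 and SCI 4 were above every sham array, SCI 2 and SCI 3 were between sham 3 and sham 4, and sham 2 was the lowest. The log2 difference was 0.38 (SE 0.18, 95% interval -0.02 to 0.77, limma adjusted p = 0.21), and it was 0.20 without sham 2. Stra6, the membrane receptor for Rbp4, had 4.66, 4.73, 4.33 and 4.60 on the SCI arrays and 4.46, 4.12, 4.55 and 4.79 on the sham arrays, with the highest of the 8 on sham 4. Its difference was 0.10 (SE 0.15, 95% interval -0.23 to 0.42, limma adjusted p = 0.74), and it was -0.022 without sham 2.

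Crabp2, which delivers retinoic acid to its nuclear receptor, had 5.83, 5.84, 6.23 and 5.62 on the SCI arrays and 5.46, 5.26, 5.88 and 5.85 on the sham arrays. SCI 3 was the highest, the other SCI arrays lay below sham 3 and sham 4, and sham 2 was again the lowest. The difference was 0.27 (SE 0.17, 95% interval -0.11 to 0.64, limma adjusted p = 0.37), and it was 0.15 when either SCI 3 or sham 2 was dropped. It was -0.10 without SCI 3, sham 1 and sham 2 together. Crabp1, the other cellular retinoic acid binding protein, had 4.35, 4.74, 4.59 and 4.91 on the SCI arrays and 4.87, 4.97, 4.34 and 4.24 on the sham arrays. The groups overlapped throughout, with both the highest and the lowest array in sham, and the difference was 0.04 (SE 0.18, 95% interval -0.36 to 0.45, limma adjusted p = 0.92). Crabp2 minus Crabp1 within each array was 1.23 ± 0.41 in SCI and 1.01 ± 0.67 in sham (log2, SD, n = 4 each), a change of 0.22 (exact permutation p = 0.60, adjusted 0.60), and of -0.0144 without sham 2.

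Rarb, the retinoic acid receptor whose element is printed above, had 4.63, 4.41, 4.58 and 4.24 on the SCI arrays and 4.53, 4.63, 4.45 and 4.40 on the sham arrays. The groups overlapped, and Rarb had the narrowest interval of the 9 genes, from -0.28 to 0.21 around a log2 difference of -0.04 (SE 0.11, limma adjusted p = 0.88). On the linear scale these bounds are 0.823-fold and 1.15-fold, so a rise in Rarb signal as large as that of Aldh1a2 lies outside the interval. Its level was under the median of all genes in both groups. RMA compresses differences of dim probe sets, so the comparison with Aldh1a2 is one of signal and not of RNA amount.

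The other genes of the pathway were taken from 5 lists of 76 different genes, of which 63 were tested. Of these, 13 were higher and 1 lower in SCI (20.6% and 1.59%, against 7.10% and 7.06% of all genes), with a median difference of 0.07. Among those higher were the retinol dehydrogenases Rdh10 and Dhrs9 and also Dhrs3, which reduces retinal back to retinol. A second Rbp4 receptor, Rxra, which pairs with the retinoic acid receptors, and the orphan receptor Nr2f2 were higher too. The remaining retinoic acid hydroxylases, retinoic acid receptors and retinoid X receptors did not pass. The number higher was 7 without SCI 2 and 4 without SCI 3, sham 1 and sham 2 together. The lists were written with earlier results of these data known, so the shares are descriptive and were not tested.

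**Figure D2:**
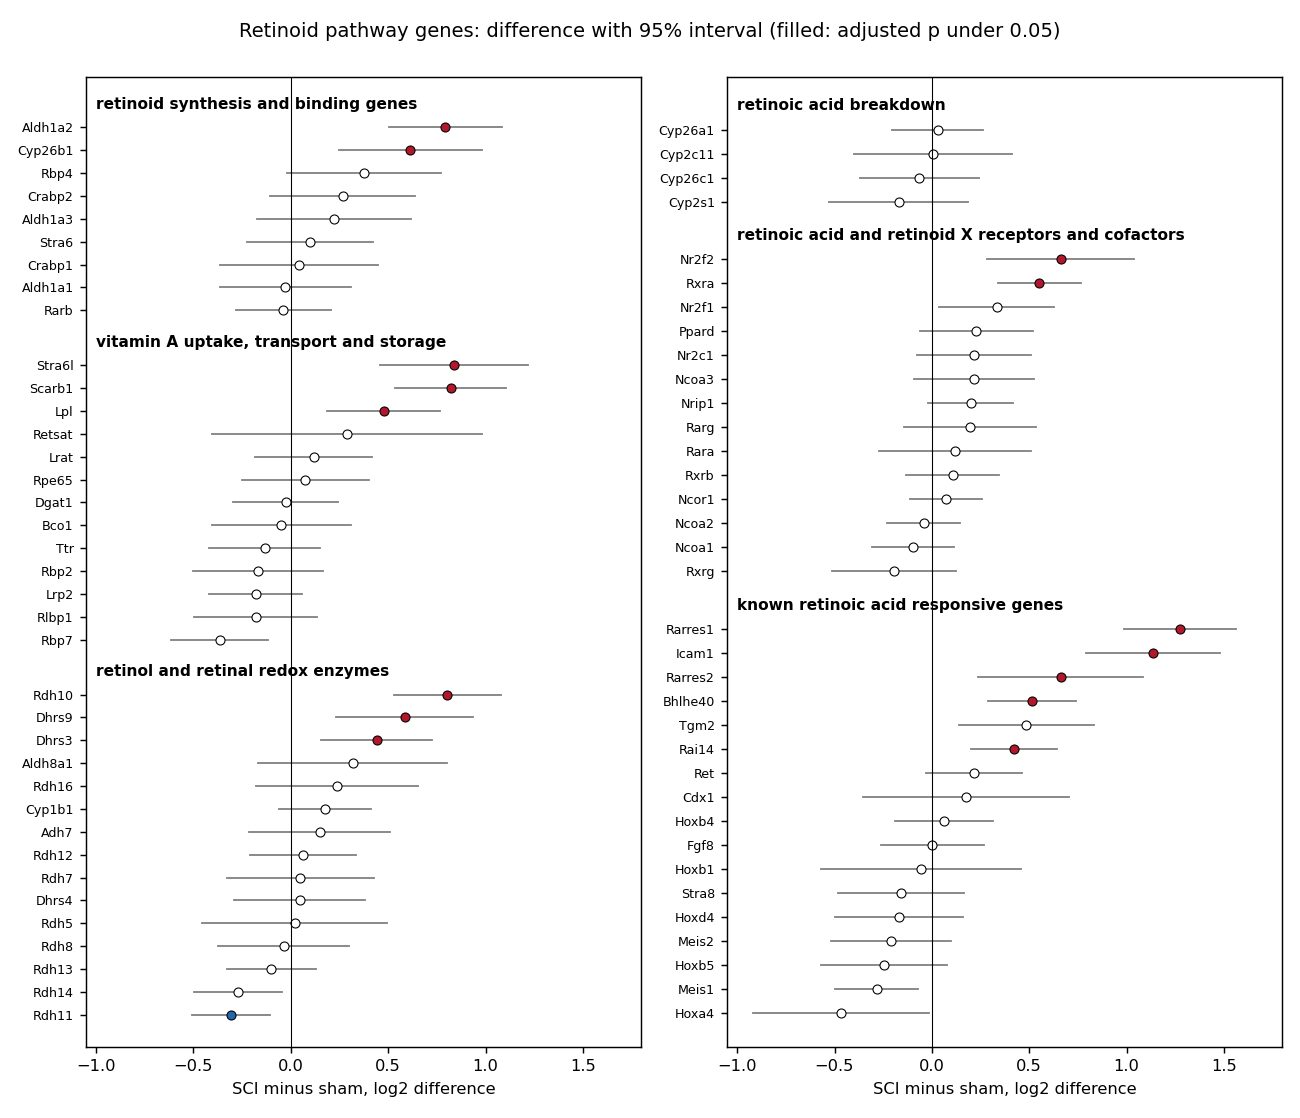
Difference between SCI and sham (x axis, log2) with its 95% interval for the 9 genes and the 63 other pathway genes tested, by role, each gene shown once. Filled points passed at an adjusted p under 0.05, red higher and blue lower in SCI: Aldh1a2, Cyp26b1 and 13 others were higher and Rdh11 was lower.

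Of 13 genes of vitamin A uptake, transport and storage, 3 were higher and 0 lower. Stra6l, the gene of a second Rbp4 receptor (known in the mouse from liver and intestine), had 4.13, 3.78, 3.78 and 3.24 on the SCI arrays and 3.15, 2.86, 2.81 and 2.77 on the sham arrays. No array overlapped, SCI 4 was closest to sham, and the log2 difference was 0.84 (SE 0.17, limma adjusted p = 0.0088) from a dim level. Scarb1, a lipoprotein and carotenoid receptor, rose by 0.82 (SE 0.13, adjusted p = 0.0022), and Lpl, the lipoprotein lipase, by 0.48 (SE 0.13, adjusted p = 0.034). The call of Lpl was lost without any 1 of SCI 1, SCI 2, sham 1, sham 3 and sham 4 (0.063 to 0.091), and those of Stra6l and Scarb1 without SCI 3, sham 1 and sham 2 together (0.075 and 0.069). Rbp7, a cellular retinol binding protein, had -0.37 (adjusted p = 0.054), with every SCI array below every sham array.

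Of 15 retinol and retinal redox enzymes, 3 were higher and 1 lower. Rdh10, which oxidises retinol to the retinal that Aldh1a enzymes use, had 6.26, 6.31, 5.99 and 5.93 on the SCI arrays and 5.45, 5.35, 5.39 and 5.08 on the sham arrays. The groups did not overlap, with means of 6.12 ± 0.19 in SCI and 5.32 ± 0.16 in sham (log2, SD, n = 4 each), a 1.75-fold rise (difference 0.80, SE 0.12, limma adjusted p = 0.0019). The call of Rdh10 was kept under all 17 alternatives (adjusted p of 2.1e-04 to 0.028). Dhrs3, which reduces retinal back to retinol, rose by 0.44 (SE 0.13, adjusted p = 0.043), and Dhrs9, a retinol dehydrogenase, by 0.59 (SE 0.16, adjusted p = 0.032). The call of Dhrs3 needed each of SCI 1, SCI 2, SCI 3, sham 1, sham 2 and sham 4 (0.061 to 0.12 when 1 of them was dropped) and was lost with each array centred on its median (0.059). That of Dhrs9 needed each of SCI 2, SCI 3, sham 1, sham 2 and sham 4 (0.051 to 0.086). Rdh11, another retinal reductase, fell by 0.31 (SE 0.09, adjusted p = 0.046), and lost its call without any 1 array (0.059 to 0.12).

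None of the 4 other genes of retinoic acid breakdown passed limma, and 0 had an unadjusted p under 0.05. Cyp26a1, Cyp26c1 and Cyp2s1 had differences of 0.03, -0.06 and -0.17 and adjusted p of 0.91, 0.83 and 0.58. Of 14 receptors and cofactors, 2 were higher and 0 lower. Rxra, the retinoid X receptor that pairs with retinoic acid receptors and with LXR and PPAR receptors, had 6.29, 6.40, 6.13 and 6.43 on the SCI arrays and 5.73, 5.81, 5.79 and 5.71 on the sham arrays. Sham values were tightly grouped and all below SCI, and the difference was 0.55 (SE 0.10, limma adjusted p = 0.0039), kept under all 17 alternatives (6.1e-04 to 0.034). Nr2f2, an orphan receptor (COUP-TFII) that retinoic acid can induce, rose by 0.66 (SE 0.17, adjusted p = 0.026), with sham 3 inside the range of the SCI arrays, and needed the same 6 arrays as Dhrs3 for its call (0.052 to 0.074 when 1 was dropped). Nr2f1 had 0.33 (SE 0.14, adjusted p = 0.13).

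Of 19 genes known to respond to retinoic acid, 6 were higher and 0 lower (median 0.06). Rarres1, named for its induction by retinoids, had 7.06, 7.02, 6.92 and 6.78 on the SCI arrays and 5.81, 5.65, 5.88 and 5.34 on the sham arrays. All SCI arrays lay well above all sham arrays, a 2.42-fold rise (difference 1.27, SE 0.13, limma adjusted p = 1.7e-04). The adhesion molecule Icam1 rose by 1.14 (SE 0.16, adjusted p = 9.7e-04), and the transcription factor Bhlhe40 by 0.51 (SE 0.10, adjusted p = 0.0076). Rai14 rose by 0.42 (SE 0.10, adjusted p = 0.017, and 0.055 without SCI 2), and Rarres2, the chemerin gene, by 0.66 (SE 0.19, adjusted p = 0.042). The groups overlapped for Rarres2, with sham 4 (6.51) above SCI 4 (6.28). Dhrs3, above, is the other. Without passing, Tgm2 had 0.48 (adjusted p = 0.066, every SCI array above every sham array). In the other direction, also without passing, Hoxa4 had -0.47 (adjusted p = 0.17) and Meis1 -0.28 (adjusted p = 0.078, every SCI array below every sham array). These and other genes given outside the naming rule were chosen after their values were seen. The call of Rarres2 needed each of SCI 1, SCI 2, SCI 3, sham 1, sham 2 and sham 3 (0.073 to 0.11) and was lost with median centring (0.053). Several of these genes have other inducers, Icam1 and Bhlhe40 among them. The count was 2 without SCI 3, sham 1 and sham 2 together, and 3 without SCI 2.

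Many markers of the meninges were higher in SCI, most of them matrix genes. These lists too were written with earlier results of these data known. Over 3 lists, 19 of 38 meningeal genes tested were higher and 0 lower, with a median difference of 0.52. The share higher was 50%, against 7.10% of all genes, and the count was 8 without SCI 3, sham 1 and sham 2 together. Of 16 matrix genes of meningeal fibroblasts 12 were higher, and the mean log2 level of the list was 7.35 to 7.87 on the SCI arrays and 6.50 to 6.85 on the sham arrays. Fibromodulin, Fmod, rose by 1.72 (SE 0.16, limma adjusted p = 9.4e-05), Igf2, a growth factor gene of meninges, by 1.44 (SE 0.15, adjusted p = 2.0e-04) and biglycan, Bgn, by 1.08 (SE 0.13, adjusted p = 5.3e-04). Col1a1, the collagen chain, rose by 0.93 (SE 0.17, adjusted p = 0.0044), and Lum had 0.91 (SE 0.30, adjusted p = 0.072), with a sham SD of 0.71. These matrix genes are also made by scar fibroblasts and by pericytes.

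The other meningeal lists had medians of 0.32 (transporters) and 0.20 (transcription factors), against 0.92 for the matrix genes. Of 12 transporter and arachnoid barrier genes 4 were higher, and the mean level was 6.85 to 7.01 in SCI and 6.56 to 6.71 in sham. The taurine and GABA transporter Slc6a13 rose by 0.75 (SE 0.17, limma adjusted p = 0.014), the sulfate transporter Slc13a4 by 0.60 (SE 0.12, adjusted p = 0.0079) and the organic anion transporter Slc22a6 by 0.41 (SE 0.10, adjusted p = 0.023). Cdh1 rose by 0.78 (SE 0.20, adjusted p = 0.025), but its groups overlapped, with SCI 4 at 5.14 and sham 3 at 5.18. Slc22a8 had 0.20 (SE 0.09, adjusted p = 0.19) and Ptgds, the prostaglandin D synthase, 0.30 (SE 0.10, adjusted p = 0.078). Cldn11, a claudin of the arachnoid barrier and of myelin, had -0.25 (adjusted p = 0.090), with every SCI array below every sham array, and Gjb6 had -0.08. The call of Slc22a6 needed each of SCI 1, SCI 3, sham 3 and sham 4 (0.050 to 0.067 when 1 was dropped, the lowest just above the threshold). Of 10 transcription factors 3 were higher, namely Osr1 (1.21, SE 0.12, adjusted p = 1.7e-04), Zic1 (0.67, SE 0.14, adjusted p = 0.0088) and Foxc1 (0.60, SE 0.15, adjusted p = 0.024). Foxc1 lost its call without SCI 1, SCI 3, SCI 4 or sham 3 (0.051 to 0.055). Without SCI 3, sham 1 and sham 2 together, 7 of the matrix genes, 0 of the transporter genes and 1 of the factors passed.

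**Figure D3:**
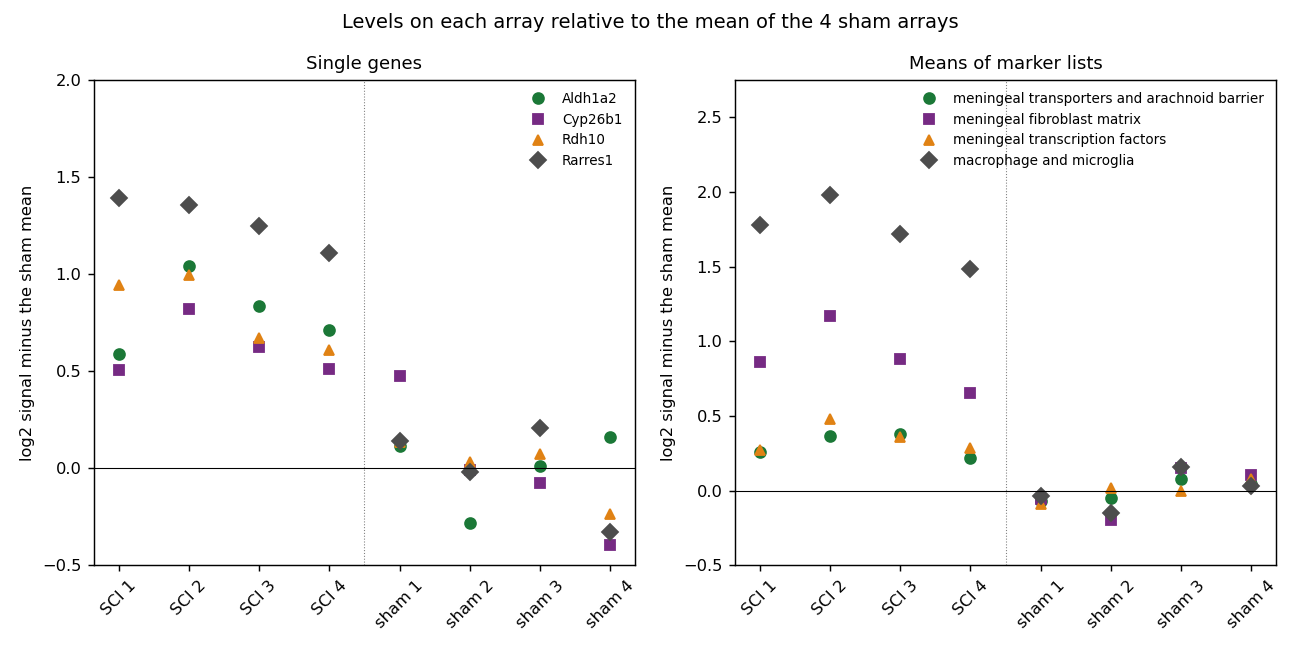
Log2 signal of each array minus the mean of the 4 sham arrays (y axis), for 4 single genes on the left and the means of 4 marker lists on the right, with SCI arrays left of the dotted line. SCI 2 was the highest array for Aldh1a2, Cyp26b1, Rdh10, the meningeal matrix and factor lists and the macrophage list, at 1.04 for Aldh1a2, 1.17 for the matrix list and 1.98 for the macrophage list.

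Within the SCI group the order of arrays in Aldh1a2 was not that of the matrix list. SCI 2 was the highest for both, at 1.04 above the sham mean in Aldh1a2 and 1.17 in the list mean. SCI 1 was the lowest for Aldh1a2 (0.59), whereas SCI 4 was the lowest for the list (0.65). SCI 2 was also the highest SCI array for 4 of the 9 retinoid genes and 12 of the 16 matrix genes, against 24.9% of all genes. The same held for 9 of 11 macrophage and microglia genes, 7 of 10 meningeal transcription factors and 5 of 9 endothelial genes. It held for 3 of 12 meningeal transporter genes and 0 of 9 Schwann cell genes, so it was not particular to retinoid or meningeal genes. With 4 arrays in each group no correlation within a group was computed, and the part of the meninges in the rise of Aldh1a2 was not tested.

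Markers of other cells moved as well, on lists also written with earlier results known. For comparison with the counts here, 7.10% of all genes were higher and 7.06% lower in SCI. Of 11 macrophage and microglia genes 11 were higher, with list means of 7.94 to 8.43 in SCI and 6.31 to 6.61 in sham, among them Cd68 (4.17, SE 0.14), C1qb (2.12, SE 0.16), Fcer1g (2.00, SE 0.15) and Tyrobp (1.89, SE 0.14). Of 6 border macrophage genes 4 were higher, Siglec1 (2.79), Folr2 (2.04), Pf4 (1.40) and Mrc1 (1.29), while Cd163 had 0.17 (adjusted p = 0.57) and Lyve1 0.31 (0.36). Of 9 pericyte and smooth muscle genes 3 were higher, Anpep (2.10), Vtn (1.01) and Myh11 (0.47, which needed each array but SCI 4, 0.063 to 0.13), while Pdgfrb had 0.34 (adjusted p = 0.14), Abcc9 -0.35 (0.12), Tagln -0.34 (0.18) and Rgs5 -0.13 (0.41). Of 9 endothelial genes 1 was higher, Cdh5 (0.68), and Cldn5, Flt1 and Emcn had -0.20, -0.40 and 0.33. Of 9 Schwann cell genes 4 were higher, among them Scn7a (1.25), Ncmap (0.91) and Pmp22 (0.83), and 1 was lower, Mbp (-0.70), which oligodendrocytes share. Among 9 precursor genes of oligodendrocytes 3 were higher, C1ql1 (0.52), Lhfpl3 (0.47) and Pdgfra (0.42), and 2 lower, Olig1 (-0.43) and Sox10 (-0.34). Dropping SCI 2, sham 2 or sham 4 ended the call of Pdgfra (0.051 to 0.063). Without passing, Olig2 had -0.50 (adjusted p = 0.055), with every SCI array below every sham array. Gpr17 had 0.33 (adjusted p = 0.066), with every SCI array above every sham array, and Cspg4 and Vcan had 0.36 and -0.07. In the same samples 7 of 9 myelin genes were lower, led by Fa2h (-1.09), Hapln2 (-0.93) and Mog (-0.78), as were 10 of 10 neuronal genes, among them Ina (-0.77), Nefm (-0.62), Rbfox3 (-0.61) and Syp (-0.58). Without SCI 3, sham 1 and sham 2 together the neuronal count was 2, 0 precursor genes were higher and 0 lower, and the endothelial and adipocyte counts were 0, whereas 10 macrophage and microglia genes and 5 myelin genes still passed.

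Of 8 astrocyte genes 2 were higher, Gfap (0.81) and Gja1 (0.59), and 1 lower, Slc1a2 (-0.39), which needed each of SCI 1, SCI 2, SCI 3, sham 2, sham 3 and sham 4 (0.064 to 0.088). None of 6 motor neuron genes passed limma (3 at an unadjusted p under 0.05), with Chat at -0.20, Slc18a3 at -0.30, Slc5a7 at -0.43 and Isl1 at 0.22. None of 5 ependymal genes passed (0 unadjusted), with Ak7, Cfap126 and Rsph1 at 0.13, 0.30 and 0.19. Of 7 adipocyte genes, a list included because fat tissue makes Rbp4, 2 were higher, Cfd (0.90) and Fabp4 (0.67, adjusted p = 0.053 without sham 4), while Lipe had -0.20 and the defining adipocyte gene Adipoq stayed at 2.32 to 2.91 in SCI and 2.45 to 3.17 in sham. None of 5 skeletal muscle genes passed (0 unadjusted), with Ckm, Tnnt3 and Actn3 at 0.22, 0.23 and -0.15. None of 3 blood and plasma genes passed (0 unadjusted), with Hba-a1, Hbb-b1 and Alb at -0.37, -0.56 and -1.06. The part of each of these cell types in the retinoid values was not tested. Without detection calls, absence of a dim marker cannot be stated.

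**Figure D4:**
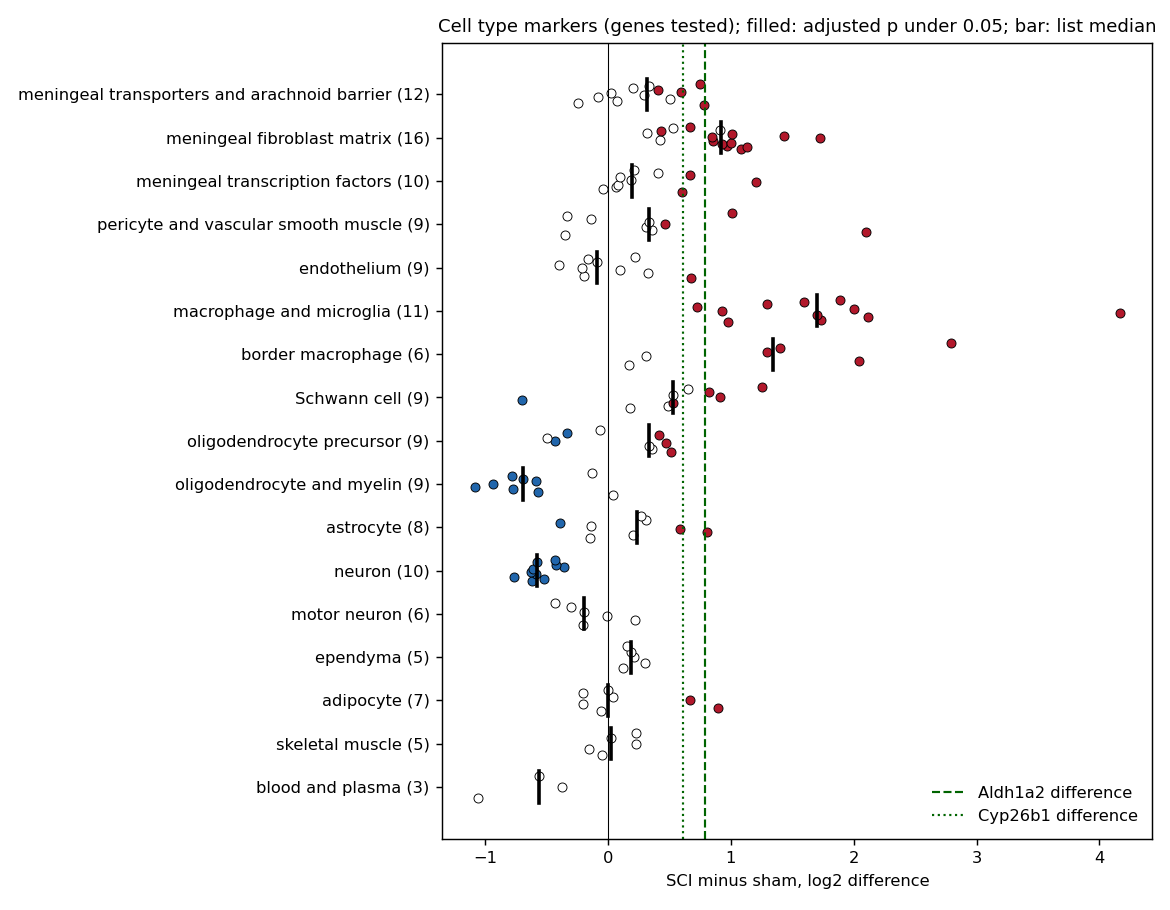
Difference between SCI and sham (x axis, log2) of every tested marker gene, 1 row for each list with the number of genes tested, the list median as a black bar, and genes at an adjusted p under 0.05 filled, red higher and blue lower in SCI. The dashed and dotted lines stand at the differences of Aldh1a2 (0.79) and Cyp26b1 (0.61). Both lie below the medians of the meningeal matrix (0.92), border macrophage (1.35) and macrophage and microglia (1.70) lists. They lie above the medians of all other lists, among them Schwann cell (0.53), pericyte (0.34), meningeal transporter (0.32) and meningeal transcription factor (0.20).

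The genes most like each retinoid gene that rose were found by the root mean square difference between profiles over the 8 arrays, each gene centred on its own mean. For Aldh1a2 they were Slc8b1, a mitochondrial sodium and calcium exchanger (0.081 log2 units), Ada, the adenosine deaminase (0.098), and Cpxm2, a carboxypeptidase-like gene (0.10), against a median of 0.47 over all genes. Slc8b1 had means of 5.60 ± 0.24 in SCI and 4.91 ± 0.13 in sham, and Ada of 4.62 ± 0.18 in SCI and 3.82 ± 0.30 in sham (log2, SD, n = 4 each). For Cyp26b1 they were Lrch4 (0.13), Rin2 (0.13) and Parp9 (0.13), against a median of 0.43, with differences of 0.48, 0.58 and 0.51. The calls of Lrch4 and Rin2 were lost without SCI 2, sham 2 or sham 4, and that of Lrch4 also without SCI 1, SCI 3 or sham 3 (adjusted p of 0.055 to 0.089). Likeness over 8 arrays rests largely on the difference between the groups.

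**Figure D5:**
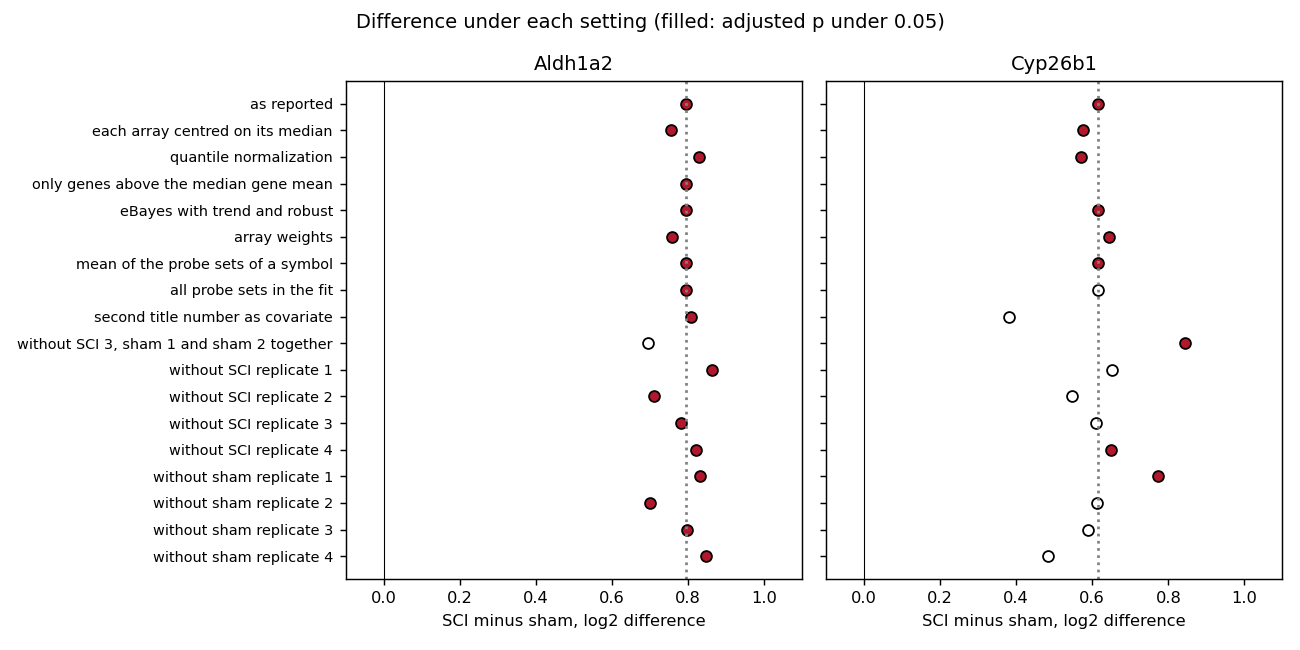
Difference between SCI and sham (x axis, log2) of Aldh1a2 and Cyp26b1 as reported and under 17 other settings, filled where the adjusted p was under 0.05. Aldh1a2 stayed between 0.70 and 0.86 and lost its call under 1 setting, and Cyp26b1 lay between 0.38 and 0.84 and lost its call under 8 of the 16 settings in which it was tested.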

How the data were processed

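Total RNA of 8 cord samples was labelled and hybridised to Affymetrix Rat Gene 2.0 ST arrays. The authors deposited log2 values, made with Affymetrix Expression Console and RMA per the submitters' processing notes. RMA corrects background, normalizes between arrays and summarises probes. No version, setting or genome build was stated, and RMA compresses differences of dim probe sets. That the base is 2 follows from RMA and the range of values.

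Of 36685 probe sets, 18511 carried 1 symbol in the platform annotation, 575 several and 17599 none here. For the 291 symbols with several probe sets the brightest was kept, which left 18166 genes. SCI was compared with sham in limma 3.58.1 (R 4.3.3, lmFit and eBayes, no covariate), with Benjamini-Hochberg adjustment over all genes. Adjusted p-values of genes come from this limma model. The fit was tested on simulated data. Differences between paired genes were tested with exact permutation in scipy 1.17.1. Promoter sequences came from RefSeq tables of GRCr8.

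The members were chosen, and the pathway and marker lists written, with earlier results of these data known. Named genes are the members, up to 6 called genes of each pathway list (3 by smallest p where fewer passed), the 3 marker genes of smallest p in each list, 15 fixed markers and the 3 genes most like each called member. C1qb, Pf4, Ncmap and Cdh1, all higher in SCI, and some genes that did not pass or had negative values were named outside this rule. Replicates were numbered in sample order and pair nothing. The alternatives were normalization, a filter on dim genes, the variance model, array weights, probe set choice, a title number as covariate and leaving out arrays.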

Additional observations from a re-analysis of the deposited data

How the results depend on the processing

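Counts and genes were recomputed under 17 alternatives, or 16 for genes that the filter on dim genes removes, and the paired differences under 10 (the mean of probe sets and leaving out arrays). The number of genes called, 2572 as reported, was 1441 with all probe sets in the fit, 1356 with the title number as covariate and 847 without SCI 3, sham 1 and sham 2 together, and leaving out 1 array gave 1703 (without SCI 2) to 2540. With each array centred on its median, which moved the median difference of all genes from -0.01 to -0.05, 42% of called genes were higher, against 50.2% as reported, and with the title number and without the 3 arrays the shares were 60% and 66.5%. The number of retinoid genes called, 2 as reported, was 1 with only genes above the median mean level, which removed Aldh1a3, Crabp1, Cyp26b1, Stra6 and Rarb from the test, 1 with all probe sets in the fit, 1 with the title number, 1 without the 3 arrays and 1 to 2 without any 1 array. The gene kept was Cyp26b1 without the 3 arrays and Aldh1a2 in all others, and the cause was not tested beyond fewer genes or arrays. Of the paired differences, Crabp2 minus Crabp1 was -0.48 without the 3 arrays. Leaving out 1 array gave it -0.0144 to 0.42, Aldh1a2 minus Aldh1a1 0.64 to 0.92, Aldh1a2 minus Aldh1a3 0.40 to 0.72 and Aldh1a1 minus Aldh1a3 -0.50 to -0.0241. With 1 array left out, the exact test of a pair cannot pass 0.05, so only its value was recomputed.

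Genes not called changed sign around 0. With the title number, Aldh1a1 was 0.053, Crabp1 -0.043, Cyp26c1 0.016 and Tnnt3 -0.10. Without the 3 arrays, Crabp2 was -0.10, Stra6 -0.0096, Adipoq 0.16 and Actn3 0.079. With median centring Cyp26a1 was -0.0099, and with quantile normalization -0.0010. Without any 1 array, Aldh1a1 ranged from -0.13 to 0.062, Crabp1 from -0.079 to 0.16, Rarb from -0.091 to 0.039, Stra6 from -0.022 to 0.20, Cyp26a1 from -0.028 to 0.087, Cyp26c1 from -0.13 to 0.060, Adipoq from -0.15 to 0.11, Actn3 from -0.24 to 0.010 and Tnnt3 from -0.0064 to 0.36. No paired analysis was possible because the labels give no replicate number that the groups share.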
